A study of Mus musculus with 9 samples.

Results

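The heat shock proteins and DnaJ cochaperones of the mouse heart were described as all genes whose symbol starts with Hspa, Hspb, Hspd, Hspe or Hsph followed by a digit, or with Hsp90 or Dnaj. The rule found 69 of the 16873 genes in the files, 27 of them Hsp genes and 42 Dnaj genes. RNA-seq of whole heart was compared between Sting-/- mice given doxorubicin (Sting-/- DOX), wild-type mice given doxorubicin (WT DOX) and wild-type mice given saline (WT saline), with 3 libraries in each of 3 groups. Doxorubicin, an anthracycline, is used against cancer and is toxic to heart muscle. STING relays the signal of cGAS, a sensor of DNA in the cytosol, to interferon and inflammation. The series' design text describes low-dose, chronic treatment and asks what this pathway does to the treated heart, but the sample labels give no dose, schedule, age, sex or strain. The design text sets the Sting-/- mice apart from mice with an endothelial deletion of Sting, which were not analysed here. A Sting-/- group without the drug was not analysed here, so every comparison with Sting-/- DOX holds the genotype and any difference in its response to the drug together.

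Chaperones of the HSP70 family bind unfolded stretches of protein and release them in a cycle of ATP hydrolysis, which J-domain (DNAJ) proteins speed up and HSP110 proteins reset by exchanging the nucleotide. HSP90 acts later, on kinases, steroid receptors and other clients that are nearly folded, and the small heat shock proteins hold unfolding proteins without using ATP. Separate sets serve the cytosol, the endoplasmic reticulum and mitochondria. Heart muscle is rich in small heat shock proteins, several of which sit on the sarcomere, and stress acts on many of these genes through heat shock factors (cytosol) or the unfolded protein response (endoplasmic reticulum).

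Levels are given as FPKM (fragments scaled by transcript length and by library size), so that levels can be set side by side between genes. Differences are log2 fold changes on the log2(FPKM + 1) scale with their standard errors (SE), from limma with Benjamini-Hochberg adjustment over all 12485 genes tested. A gene was called at an adjusted p of at most 0.05, and a gene was tested where its mean over all 9 libraries was at least 1 FPKM. Of the members, 63 were tested and 6 fell under that filter: Dnajb13, Dnajb3, Dnajb7, Dnajc22, Dnajc6 and Hspb9, none above 1.63 FPKM in any library. Nothing in the labels states that each library is its own animal. The p-values therefore measure only how far these samples spread, which may be technical.

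Sting1, the deleted gene, was at 0.06, 0.00 and 0.00 FPKM in the Sting-/- DOX libraries, against 17.49, 17.96 and 17.76 FPKM in the WT DOX libraries and 5.10, 5.43 and 5.93 FPKM in the WT saline libraries. Markers of the cells of the heart differed strongly between the groups. The 10 cardiomyocyte markers (Myh6, Tnnt2, Myl2 and others) summed to 9172 to 9799 FPKM in Sting-/- DOX, 40520 to 42000 FPKM in WT DOX and 62910 to 65450 FPKM in WT saline. The 8 endothelial markers (Pecam1, Cdh5 and others) summed to 1210 to 1296, 288.6 to 294.5 and 299.3 to 308.2 FPKM in the same order of groups, and the 7 fibroblast markers to 4571 to 4836, 734.9 to 751.4 and 484.4 to 493.6 FPKM. Col1a1 and Col1a2 made up most of the fibroblast sum in Sting-/- DOX, and against WT DOX 6 fibroblast markers rose and Pdgfra did not pass. Macrophage and monocyte markers (8 genes) summed to 1992 to 2058, 1052 to 1186 and 330.4 to 377.4 FPKM. Lyz2 and C1qa made up most of that sum. In Sting-/- DOX against WT DOX, 5 of these 8 rose, 2 fell (Fcgr1 and Mrc1) and 1 did not pass. Smooth muscle markers (5 genes) summed to 851.7 to 901.9, 192.8 to 211.3 and 193.3 to 227.6 FPKM, mesothelial markers (5) to 76.75 to 81.46, 2.59 to 3.61 and 3.55 to 5.93 FPKM, and erythroid markers (3) to 6198 to 6973, 1108 to 1208 and 1729 to 1854 FPKM. Neutrophil markers (5) summed to 82.2 to 97.51, 209.1 to 276.2 and 6.31 to 7.02 FPKM, T cell markers (4) to 1.83 to 2.78, 4.03 to 8.46 and 1.71 to 2.18 FPKM, and skeletal muscle markers (5) to 190.2 to 200, 353.8 to 406.7 and 387.6 to 626.8 FPKM. Most of the skeletal muscle sum was Acta1, with means of 177.9, 379.7 and 499.9 FPKM. Of the 3 skeletal muscle markers tested, Acta1 fell and 2 rose in Sting-/- DOX against WT DOX (median 1.67). No marker of these lists was at 0 in all libraries of a group. In bulk RNA, fewer cells of a type and less RNA per cell cannot be told apart, and the part of cell makeup in the results on the members was not tested.

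Together the 69 members made up a smaller share of the transcriptome in Sting-/- DOX hearts than in either WT group. They summed to 3662.7 to 3748.2 FPKM in Sting-/- DOX, against 7349.1 to 7631.4 FPKM in WT DOX and 6964.5 to 7496.8 FPKM in WT saline, or 0.679% to 0.695%, 1.312% to 1.342% and 1.254% to 1.354% of each library's FPKM sum. The Sting-/- DOX libraries lay below all others, while the ranges of WT DOX and WT saline overlapped. The small heat shock proteins and the mitochondrial chaperones carried most of that gap. Small heat shock proteins summed to 825.8 ± 17.6 FPKM in Sting-/- DOX, 3605 ± 168 in WT DOX and 3225 ± 119 in WT saline (mean ± SD, n = 3 each), which is 22.3%, 47.9% and 44.9% of the members' sum. Mitochondrial chaperones and their J proteins summed to 285.7 ± 6.13, 931.7 ± 7.57 and 1096 ± 23.1 FPKM. By contrast, the cytosolic HSP70 and HSP110 genes summed to 981.5 ± 31.4, 1074 ± 9.75 and 1076 ± 75.2 FPKM, and the endoplasmic reticulum set to 537.8 ± 16.9, 618 ± 16.4 and 481.2 ± 9.33 FPKM.

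**Figure D1:**
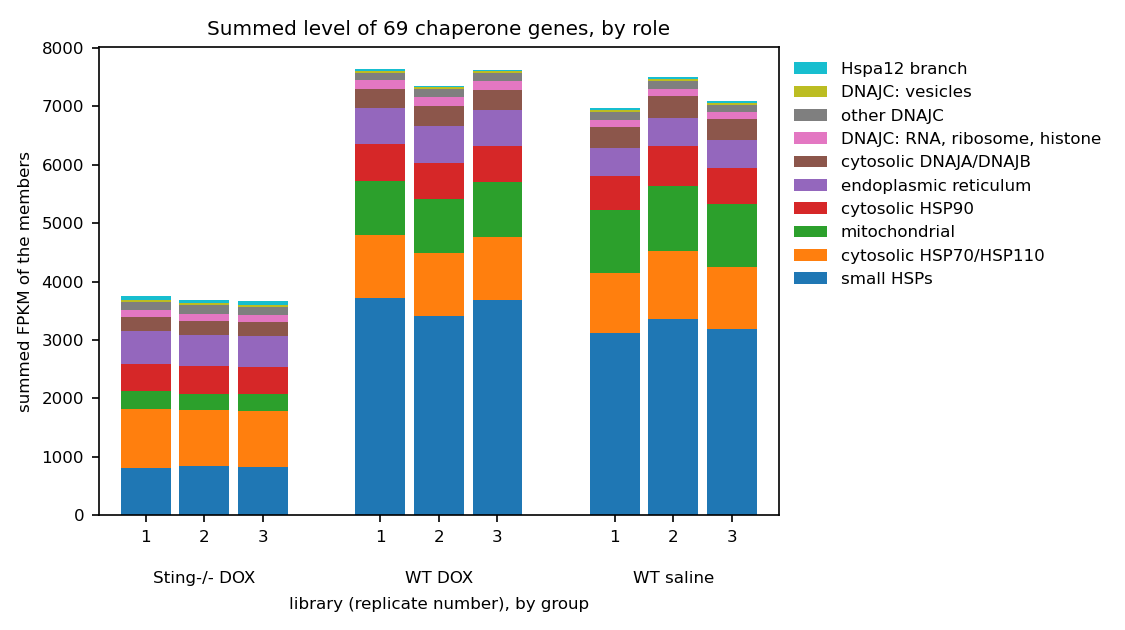
Summed FPKM of the 69 chaperone genes in each of the 9 libraries, stacked by role, for Sting-/- DOX, WT DOX and WT saline. Each bar is 1 library; the Sting-/- DOX bars reach 3662.7 to 3748.2 FPKM and the other 6 reach 6964.5 to 7631.4 FPKM, with the small heat shock proteins (lowest band) and the mitochondrial set accounting for most of the difference.

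Against WT DOX, Sting-/- DOX hearts had 42 of the 63 tested members lower, 10 higher and 11 that did not pass (limma). Of all genes tested, 29.7% were lower and 54.1% higher, so the members' 66.7% lower and 15.9% higher lay on the other side from all genes on the FPKM scale, with a median log2 fold change of -0.34 for the members and 0.25 for all genes. With median-ratio scaling all genes also split to the lower side, 4709 higher and 5385 lower, and the medians were -0.639 for the members and -0.049 for all genes. In either direction 52 members passed, or 82.5% against 83.8% of all genes, which is near the background. The ranges of the groups did not overlap for 54 members (85.7%, against 84.8% of all genes), 43 of them lower (30.1% of all genes) and 11 higher (54.7% of all genes). Between WT DOX and WT saline the changes were smaller and mixed, with 23 members higher and 24 lower, or 36.5% and 38.1%, against 45.3% and 21.5% of all genes. In all 47 passed, or 74.6% against 66.7% of all genes, and the ranges did not overlap for 51 (81%, against 71.7%), 24 of them higher (47.8% of all genes) and 27 lower (23.8% of all genes). The medians were -0.02 for the members and 0.13 for all genes.

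FPKM values depend on the total of the library, and over all genes the median difference (log2) lay above 0 in each comparison (0.13, 0.25 and 0.49 for WT DOX against WT saline, Sting-/- DOX against WT DOX and Sting-/- DOX against WT saline). Scaling the libraries by median ratios moves those medians to -0.085, -0.049 and -0.016. With that scaling the members' split becomes 5 higher and 48 lower in Sting-/- DOX against WT DOX, and 11 higher and 36 lower in WT DOX against WT saline, where quantile normalization gives 13 and 34. All genes in WT DOX against WT saline then split to 3582 higher and 5109 lower with median-ratio scaling, and to 3461 and 5363 with quantile normalization. The changes below are therefore to be read against these medians, since median-ratio scaling gave every one of the 63 tested members a lower log2 fold change in each comparison. Rises named below that kept their call with it included, in WT DOX against WT saline, 0.603 for Hspb1, 0.458 for Dnajb11, 0.385 for Hsp90aa1, 0.344 for Hspb2, 0.334 for Hspa13, 0.318 for Hsp90b1 and 0.147 for Hspa14. They included, in Sting-/- DOX against WT DOX, 1.843 for Hspa12b, 1.007 for Hspa2, 0.485 for Dnaja1 and 0.247 for Dnajc14.

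**Figure D2:**
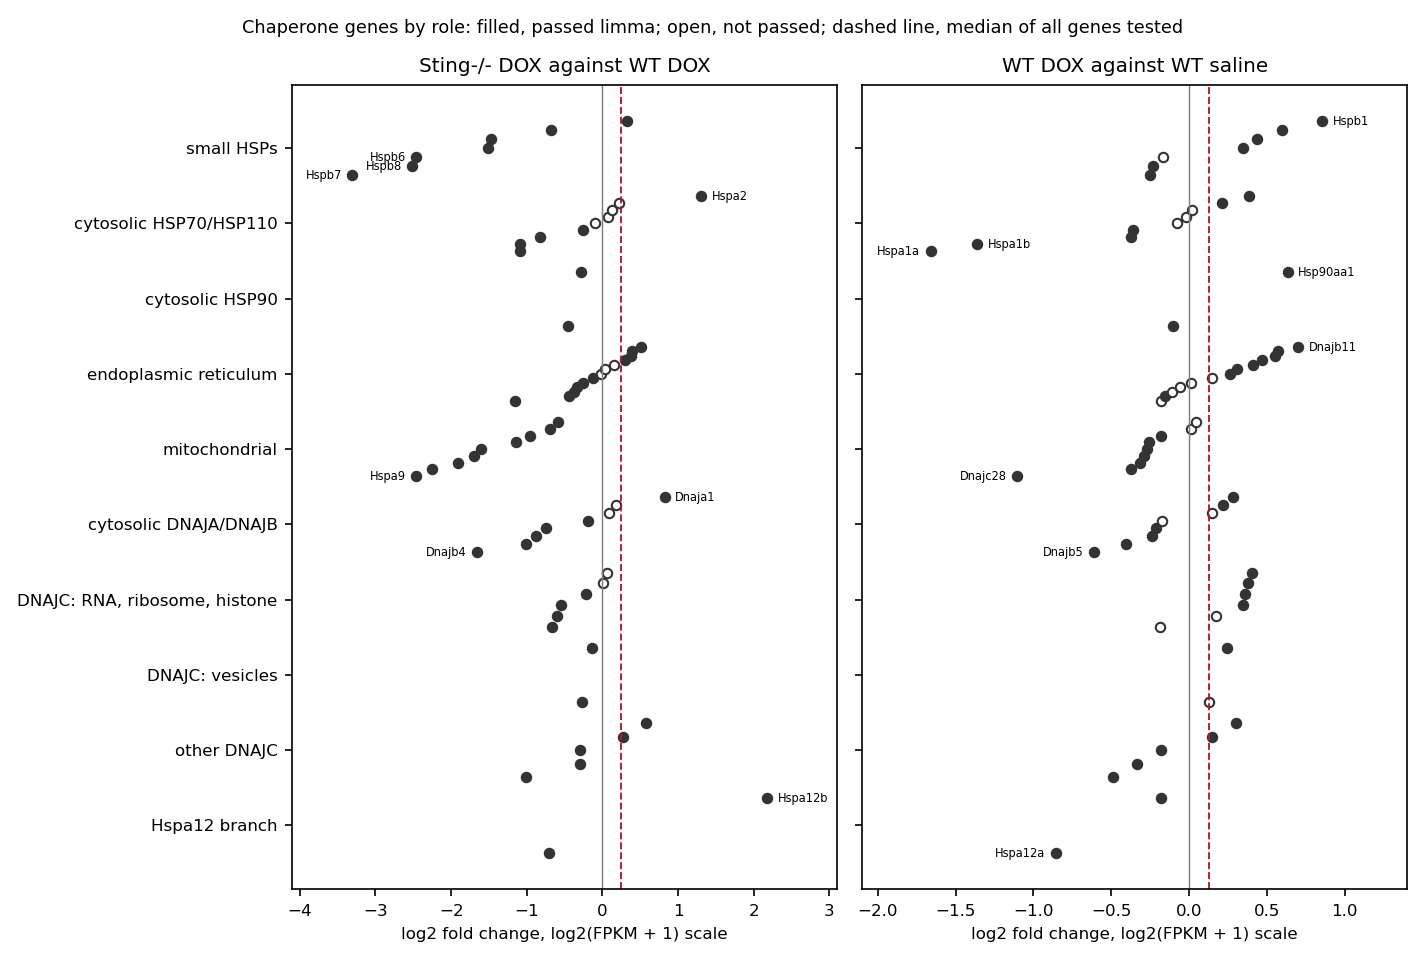
Log2 fold change on the log2(FPKM + 1) scale for each of the 63 tested chaperone genes, by role, in Sting-/- DOX against WT DOX (left) and WT DOX against WT saline (right). Filled points passed limma at an adjusted p of 0.05, open points did not, and the dashed line is the median of all 12485 genes (0.25 and 0.13); in the left panel all 9 mitochondrial genes and 6 of 7 small heat shock proteins lie below 0.

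The small heat shock proteins held the 3 largest falls of the family in Sting-/- DOX against WT DOX, those of Hspb7, Hspb8 and Hspb6. Of the 7 tested, 6 fell and 1 rose in Sting-/- DOX against WT DOX (median -1.51), beside 29.7% of all genes lower and 54.1% higher. In WT DOX against WT saline 4 rose, 2 fell and 1 did not pass (median 0.35), beside 45.3% of all genes higher and 21.5% lower. Median-ratio scaling gave 3 higher and 3 lower there. Hspb7, a small heat shock protein of cardiac and skeletal muscle that binds the thin filament, was the most abundant member in WT DOX hearts. It stood at 151.98, 150.89 and 151.00 FPKM in Sting-/- DOX, 1539.79, 1450.12 and 1521.76 FPKM in WT DOX, and 1151.59, 1209.86 and 1179.34 FPKM in WT saline. The groups do not overlap and WT DOX is the highest. Hspb7 had the largest fall of any member, -3.30 (SE 0.03, limma adjusted p = 1.72e-14) in Sting-/- DOX against WT DOX. WT DOX was higher than WT saline by 0.35 (SE 0.03, limma adjusted p = 1.98e-06), which was 0.096 (limma adjusted p = 0.0268) with median-ratio scaling.

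Hspb6, a small heat shock protein of muscle that is phosphorylated through cyclic nucleotide signalling, was at 184.17, 182.80 and 173.77 FPKM in Sting-/- DOX, 1079.96, 897.48 and 1025.41 FPKM in WT DOX and 1168.37, 1239.51 and 1158.85 FPKM in WT saline. Hspb8, the partner of the cochaperone Bag3 in clearing damaged muscle proteins by autophagy, was at 58.29, 64.44 and 63.40 FPKM in Sting-/- DOX, 366.95, 356.19 and 353.31 FPKM in WT DOX and 405.07, 444.31 and 418.14 FPKM in WT saline. Both were lowest in Sting-/- DOX and highest in WT saline, with no overlap between groups. Against WT DOX they fell by 2.46 and 2.51 in Sting-/- DOX (limma adjusted p = 2.68e-12 and 3.11e-13) and by 0.25 and 0.23 in WT DOX against WT saline (limma adjusted p = 0.00259 and 0.000764).

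Hspb1, the widely expressed HSP27 that binds actin filaments, fell less than Hspb6, Hspb7 and Hspb8 in Sting-/- DOX against WT DOX. It was at 358.34, 380.57 and 376.09 FPKM in Sting-/- DOX, 591.15, 573.92 and 630.12 FPKM in WT DOX and 301.67, 359.16 and 331.62 FPKM in WT saline. WT DOX was the highest group, with the largest rise of any member over WT saline, 0.86 (SE 0.06, limma adjusted p = 9.69e-08). Against WT DOX, Sting-/- DOX changed by -0.685 (SE 0.06, limma adjusted p = 2.92e-07), and the ranges of Sting-/- DOX and WT saline overlapped. Against WT saline its 0.17 passed the test (limma adjusted p = 0.0154), but it was 0.11 without WT saline library 1, where it did not pass, nor did it pass without Sting-/- DOX library 2, and it was -0.42 with median-ratio scaling. Within each library the ratio of Hspb7 to Hspb1 was 0.407 ± 0.015 in Sting-/- DOX, 2.52 ± 0.095 in WT DOX and 3.58 ± 0.23 in WT saline (SD, n = 3 each), so Hspb1 exceeded Hspb7 only in the Sting-/- DOX libraries.

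Hspb2, a muscle protein that binds myotonic dystrophy protein kinase, was at 39.14, 44.20 and 39.21 FPKM in Sting-/- DOX, 119.49, 110.07 and 116.93 FPKM in WT DOX and 73.22, 77.33 and 77.95 FPKM in WT saline. It fell by 1.48 in Sting-/- DOX against WT DOX and rose by 0.59 in WT DOX against WT saline (limma adjusted p = 9.95e-11 and 1.19e-06). Hspb2 lies head to head with Cryab, which encodes the alpha-crystallin B chain, a small heat shock protein outside the symbol rule, and 30.2% of the exonic bases of Hspb2 overlap Cryab on the other strand in GENCODE M21. Cryab averaged 698 FPKM in Sting-/- DOX, 4008 in WT DOX and 2563 in WT saline, with log2 fold changes of -2.52 and 0.65 in the same comparisons (limma adjusted p = 2.77e-13 and 1.37e-07). Whether counting used the strand is not given in the sources used here, so reads of that overlap cannot be told apart. Hspb3, the muscle partner of Hspb2, averaged 4.89 ± 0.54 FPKM in Sting-/- DOX, 15.7 ± 1.5 in WT DOX and 17.8 ± 1.3 in WT saline (SD, n = 3 each), and fell by 1.51 against WT DOX (limma adjusted p = 4.67e-09).

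The 1 small heat shock gene that rose was Hspb11, at 12.50, 17.23 and 14.11 FPKM in Sting-/- DOX, 11.41, 10.51 and 12.38 FPKM in WT DOX and 7.19, 7.31 and 10.40 FPKM in WT saline. Its protein is known as a subunit of the intraflagellar transport complex of cilia rather than as a chaperone of unfolded protein. The rise of 0.32 over WT DOX (limma adjusted p = 0.0399) was 0.20 without Sting-/- DOX library 2 and 0.001 with median-ratio scaling, and passed in neither case, nor without Sting-/- DOX library 3 or WT DOX libraries 1 or 2. Beside all these falls stand the cardiomyocyte markers, 10 of 10 lower in Sting-/- DOX against WT DOX with a median of -2.05, and 8 of 10 lower in WT DOX against WT saline with a median of -0.70.

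**Figure D3:**
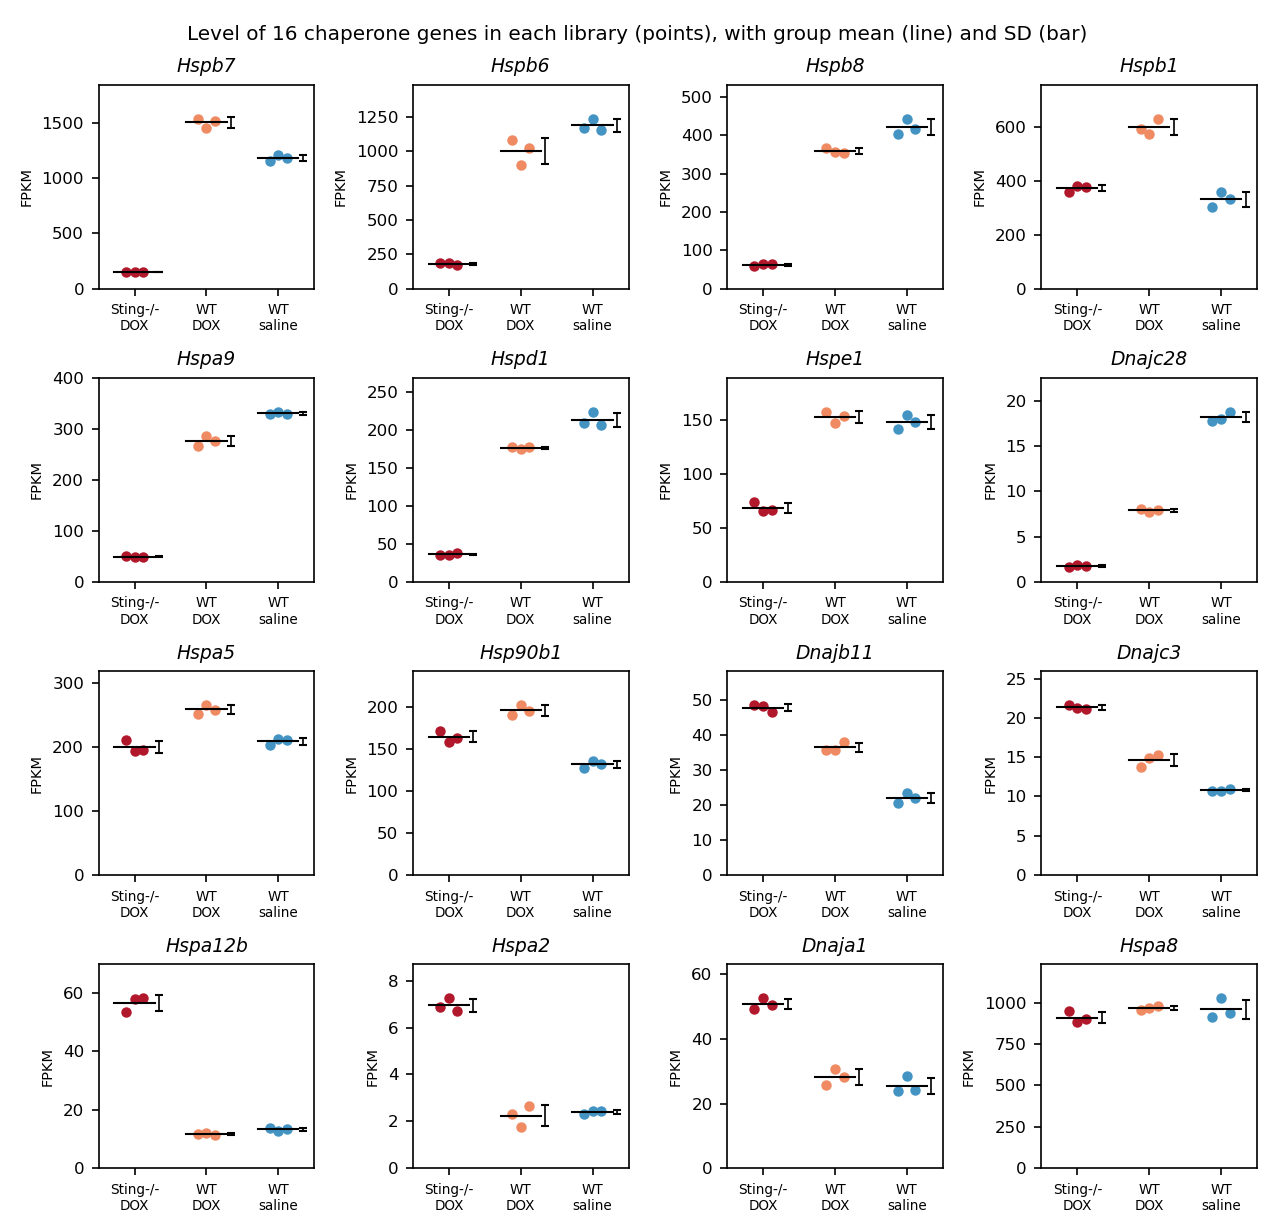
FPKM of 16 chaperone genes in each library (points), with the group mean (line) and SD (bar, n = 3), for Sting-/- DOX, WT DOX and WT saline. The top 2 rows show small heat shock and mitochondrial genes, all lowest in Sting-/- DOX except Hspb1, with Hspb7 at 150.89 to 151.98 FPKM there; the lower rows show endoplasmic reticulum genes, the 3 genes that rose most in Sting-/- DOX against WT DOX (Hspa12b, Hspa2 and Dnaja1), and Hspa8, whose groups lie close together.

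Mitochondrial chaperones were lower throughout in Sting-/- DOX hearts. All 9 fell against WT DOX (median -1.61) and all 9 fell against WT saline (median -1.90), while in WT DOX against WT saline 7 fell and 2 did not pass (median -0.27). Of all genes, 29.7%, 25.9% and 21.5% were lower in these comparisons. Hspa9, the mitochondrial HSP70 that pulls proteins through the inner membrane, was at 50.93, 48.13 and 49.44 FPKM in Sting-/- DOX, 267.21, 286.57 and 276.71 FPKM in WT DOX and 329.02, 333.90 and 328.90 FPKM in WT saline. The order of the groups was the same in every mitochondrial gene except Hspe1 and Dnajc11, whose WT DOX and WT saline ranges overlapped. Hspa9 fell by 2.46 against WT DOX (SE 0.04, limma adjusted p = 7.74e-14), and WT DOX fell by 0.26 against WT saline (SE 0.04, limma adjusted p = 6.53e-05).

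Hspd1 and Hspe1 encode the subunits of the mitochondrial chaperonin, the folding barrel (HSP60) and its lid (HSP10). Hspd1 was at 35.33, 35.64 and 37.56 FPKM in Sting-/- DOX, 177.38, 175.13 and 177.73 FPKM in WT DOX and 210.29, 224.54 and 206.63 FPKM in WT saline. Hspe1 was at 74.25, 65.47 and 66.67 FPKM in Sting-/- DOX, 158.08, 147.17 and 154.45 FPKM in WT DOX and 141.86, 154.70 and 148.40 FPKM in WT saline. Barrel and lid did not move by equal amounts. In Sting-/- DOX against WT DOX, the log2 fold change was -2.26 for Hspd1 and -1.145 for Hspe1 (SE 0.04 and 0.05, limma adjusted p = 2.68e-13 and 8.96e-10). In WT DOX against WT saline, Hspd1 fell by 0.27 (limma adjusted p = 8.88e-05) and Hspe1 did not pass (0.05, limma adjusted p = 0.451), though it was -0.20 and passed with median-ratio scaling. The ratio of Hspe1 to Hspd1 within each library was 1.9 ± 0.17 in Sting-/- DOX, 0.867 ± 0.025 in WT DOX and 0.694 ± 0.022 in WT saline (SD, n = 3 each), with no overlap between the groups.

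Hspd1 and Hspe1 lie head to head on chromosome 1. A stretch before an annotated start of Hspe1 is shown because it holds a heat shock element of a kind that both genes have. The line is labelled with both genes, but its position was recorded for Hspe1 only. Whether the match of Hspd1 is the same stretch was not tested. A 3-unit element, the units TTC, GAA and TTC with 2 free bases after each of the first 2, was searched on both strands in the 250 bases before each annotated start of the RefSeq promoter table (build GRCm38.p6). It was found for 3 of the 56 members with an entry there, Hspd1, Hspe1 and Dnajb6, and for 0.514% of all genes in the table. In the lines below, capitals mark the element, with 2 overlapping matches in the first sequence, which lies at chr1:55088053-55088082 on the plus strand, 71 bases before a start of Hspe1. The second lies at chr5:29735843-29735872 on the plus strand, 114 bases before a start of Dnajb6. Both stretches lie inside exons of other annotated transcripts, and 7.6% of the exonic bases of Hspe1 overlap Hspd1 on the other strand.
Hspe1 and Hspd1: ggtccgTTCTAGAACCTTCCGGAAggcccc
Dnajb6: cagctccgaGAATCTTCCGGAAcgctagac
The 3 genes with this element did not move together. Hspd1 and Hspe1 fell in Sting-/- DOX, whereas Dnajb6, a cochaperone that keeps aggregation-prone proteins soluble, was at 56.93, 57.63 and 57.18 FPKM in Sting-/- DOX, 56.91, 52.92 and 51.52 FPKM in WT DOX and 45.27, 44.96 and 41.75 FPKM in WT saline. Dnajb6 did not pass against WT DOX (0.09, limma adjusted p = 0.0954) and rose by 0.28 in WT DOX against WT saline (limma adjusted p = 0.000209), which was 0.04 and did not pass with median-ratio scaling.

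**Figure D4:**
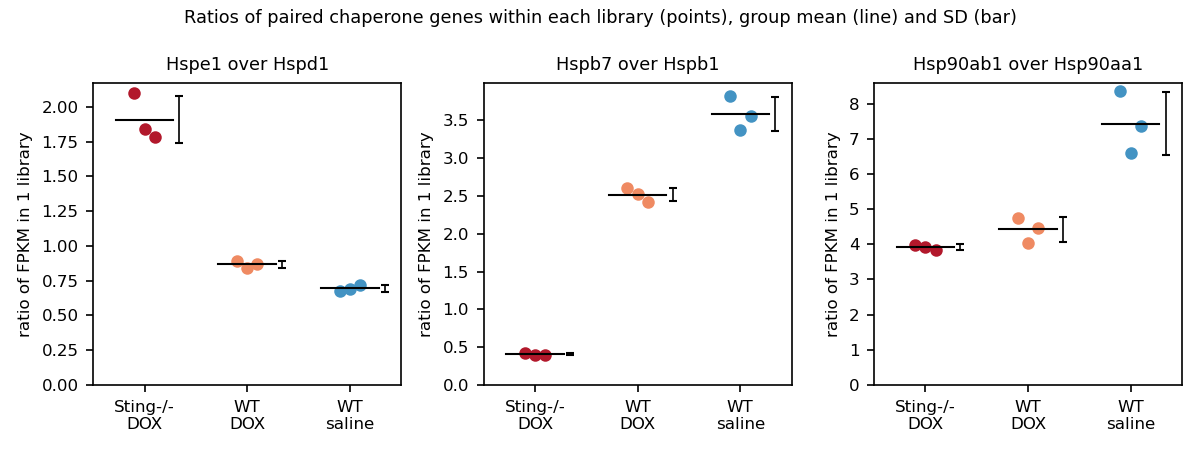
Ratios of FPKM between 3 pairs of chaperone genes within each library (points), with the group mean (line) and SD (bar, n = 3), for Sting-/- DOX, WT DOX and WT saline. Hspe1 over Hspd1 averages 1.9 in Sting-/- DOX and 0.867 and 0.694 in the WT groups, Hspb7 over Hspb1 averages 0.407, 2.52 and 3.58, and Hsp90ab1 over Hsp90aa1 averages 3.92, 4.42 and 7.43.

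The mitochondrial J proteins of the symbol rule all fell in Sting-/- DOX against WT DOX, as Hspa9 did. In WT DOX against WT saline, where Hspa9 fell, Dnajc11 did not pass (0.01, limma adjusted p = 0.899). Dnaja3, which assists Hspa9 in the matrix, averaged 13.1 ± 0.57 FPKM in Sting-/- DOX, 51.8 ± 2.2 in WT DOX and 67.3 ± 2.6 in WT saline (SD, n = 3 each). Dnajc15 and Dnajc19 belong to the inner-membrane import motor, and loss of DNAJC19 is known from human patients as a cause of dilated cardiomyopathy with ataxia. Dnajc15 was at 48.51, 40.20 and 44.24 FPKM in Sting-/- DOX, 138.43, 135.90 and 137.03 FPKM in WT DOX and 161.85, 175.02 and 166.19 FPKM in WT saline. Dnajc19 averaged 35.5 ± 1.6, 70.2 ± 4.8 and 87.4 ± 3.3 FPKM. Against WT DOX, Dnaja3 fell by 1.90, Dnajc15 by 1.61 and Dnajc19 by 0.96 (limma adjusted p = 5.12e-12, 9.93e-11 and 6.68e-09). Dnajc28 had the largest fall with doxorubicin in the WT hearts among mitochondrial members, at 1.60, 1.84 and 1.78 FPKM in Sting-/- DOX, 8.05, 7.69 and 7.99 FPKM in WT DOX and 17.75, 17.99 and 18.80 FPKM in WT saline. Its log2 fold change was -1.106 in WT DOX against WT saline and -1.702 in Sting-/- DOX against WT DOX (limma adjusted p = 8.89e-09 and 5.61e-11). Dnajc11, a partner of the complex that shapes the cristae, and Dnajc30 had the smallest falls against WT DOX, 0.70 and 0.59 (limma adjusted p = 8.74e-07 and 1.27e-06); 26.2% of the exonic bases of Dnajc30 overlap Bud23 on the other strand.

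In the cytosol, Hspa8, the constitutive HSP70, was the most abundant member of the family in Sting-/- DOX hearts, at a similar level in the other groups. It was at 947.44, 884.44 and 898.87 FPKM in Sting-/- DOX, 957.84, 970.48 and 981.08 FPKM in WT DOX and 914.00, 1026.38 and 936.74 FPKM in WT saline. Neither Sting-/- DOX against WT DOX nor WT DOX against WT saline passed (-0.09 and 0.02, limma adjusted p = 0.0711 and 0.739). With median-ratio scaling both were lower and passed, at -0.435 and -0.235. Sting-/- DOX passed as lower than WT DOX also without Sting-/- DOX library 1 or WT saline library 2. Of the 9 cytosolic HSP70 and HSP110 genes, 1 rose, 4 fell and 4 did not pass in Sting-/- DOX against WT DOX, and 2 rose, 4 fell and 3 did not pass in WT DOX against WT saline. Of all genes, 54.1% rose and 29.7% fell in the first comparison, and 45.3% rose and 21.5% fell in the second.

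The stress-inducible pair Hspa1a and Hspa1b was lower in both DOX groups than in WT saline. Hspa1a was at 3.22, 3.12 and 3.31 FPKM in Sting-/- DOX, 3.19, 3.12 and 2.35 FPKM in WT DOX and 5.83, 17.51 and 13.47 FPKM in WT saline. Hspa1b was at 3.43, 4.38 and 4.03 FPKM in Sting-/- DOX, 2.83, 3.04 and 3.94 FPKM in WT DOX and 6.29, 15.69 and 9.69 FPKM in WT saline. The 2 DOX groups overlapped and all 3 WT saline libraries lay above them, but the saline libraries themselves ran from 5.83 to 17.51 FPKM in Hspa1a. In WT DOX against WT saline, Hspa1a changed by -1.66 (SE 0.27, limma adjusted p = 0.000173) and Hspa1b by -1.36 (SE 0.23, limma adjusted p = 0.000212). Leaving out each library in turn gave -2.08 to -1.36 for Hspa1a and -1.654 to -1.057 for Hspa1b. Sting-/- DOX was lower than WT saline for both (-1.537 and -1.147, limma adjusted p = 0.000163 and 0.000436). Against WT DOX, Sting-/- DOX did not pass for either (0.12 and 0.22, limma adjusted p = 0.676 and 0.386; -0.130 and -0.050 with median-ratio scaling).

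The pair lies side by side on chromosome 17 and is nearly identical in its coding and upstream bases, which is why both promoters are printed. Over the whole transcripts of GENCODE M21 the identity was lower, at 90.5%. The coding stretches shared 99.6% of bases and the 250 bases before the starts 98.8%, so reads may be shared between them and their separate levels are uncertain; 19% of the exonic bases of Hspa1a also overlap Gm20481 on the other strand. The windows below (RefSeq, GRCm38.p6) are chr17:34972157-34972406 for Hspa1a and chr17:34959239-34959488 for Hspa1b, both on the minus strand and each ending at the base before the start. Capitals mark a 2-unit heat shock element, GAANNTTC, searched on both strands, which ends 96 bases before the start in both. That 8-letter match is common: 11 of 56 members and 7.73% of all genes have it, and neither window holds the 3-unit element as searched.
Hspa1a: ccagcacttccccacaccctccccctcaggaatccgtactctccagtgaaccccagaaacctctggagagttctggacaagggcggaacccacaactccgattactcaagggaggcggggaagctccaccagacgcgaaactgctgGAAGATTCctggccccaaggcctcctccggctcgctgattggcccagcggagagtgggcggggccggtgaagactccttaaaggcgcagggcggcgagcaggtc
Hspa1b: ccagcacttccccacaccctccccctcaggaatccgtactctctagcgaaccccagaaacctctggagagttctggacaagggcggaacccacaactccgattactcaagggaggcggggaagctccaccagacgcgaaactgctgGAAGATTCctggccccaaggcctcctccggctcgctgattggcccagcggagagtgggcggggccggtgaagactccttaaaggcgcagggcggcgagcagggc

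Other stress-inducible members shared the order of the saline libraries. The coefficient of variation among the WT saline libraries was 48.3% for Hspa1a, 45.1% for Hspa1b, 18.6% for Dnajb1, 17.9% for Hsph1 and 17.2% for Hsp90aa1, against a median of 3.8% over the tested members and 5.79% over all genes tested. In each of these 5 genes WT saline library 2 was the highest and library 1 the lowest. That order held in 24 of the 63 tested members, or 38.1%, against 20.3% of all genes, and library 2 was the highest in 37. The same genes had coefficients of variation of 0.524% (Hsp90aa1) to 12.2% (Hspa1b) in Sting-/- DOX and of 4.02% (Dnajb1) to 18% (Hspa1b) in WT DOX.

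Hsph1, the HSP110 that resets inducible HSP70, was at 12.75, 11.94 and 11.93 FPKM in Sting-/- DOX, 12.33, 10.86 and 11.44 FPKM in WT DOX and 12.52, 18.00 and 15.30 FPKM in WT saline. It was lower in WT DOX than in WT saline (-0.36, limma adjusted p = 0.00698) and did not pass between the DOX groups (0.07, limma adjusted p = 0.495; -0.24 with median-ratio scaling, where it passed). Against WT saline, Sting-/- DOX was lower by 0.29 (limma adjusted p = 0.0171), but without WT saline library 2 the difference was -0.17 and did not pass. Dnajb1, the J protein that works with inducible HSP70, was at 13.31, 13.93 and 11.59 FPKM in Sting-/- DOX, 10.79, 11.67 and 11.42 FPKM in WT DOX and 10.66, 15.48 and 12.83 FPKM in WT saline. Its groups overlapped in every comparison and none passed (limma adjusted p = 0.138 to 0.961). Without WT saline library 1, WT DOX passed as lower than WT saline (-0.30), and the median-ratio scaling gave -0.41 and -0.55 against WT saline for WT DOX and Sting-/- DOX, both of which passed.

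**Figure D5:**
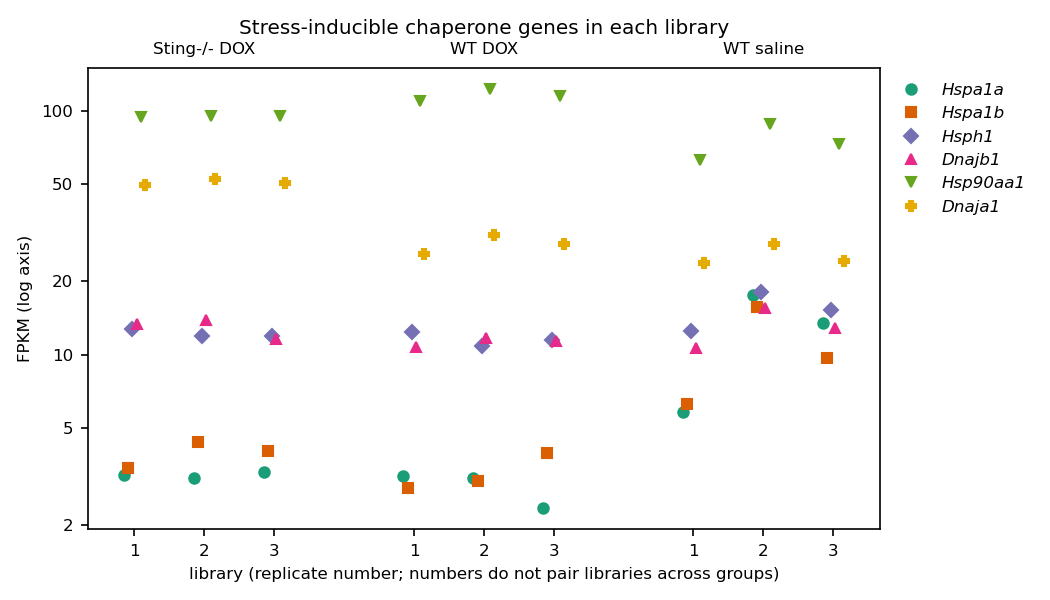
FPKM on a log axis of 6 stress-inducible chaperone genes in each library of Sting-/- DOX, WT DOX and WT saline; each symbol is 1 gene in 1 library. Hspa1a and Hspa1b lie between 2.35 and 4.38 FPKM in the 6 DOX libraries and between 5.83 and 17.51 FPKM in WT saline, where library 2 is highest in all 6 genes.

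The other cytosolic HSP70 and HSP110 genes did not all move in the same direction. Hspa4 and Hspa4l, HSP110 proteins related to Hsph1, averaged 22.6 ± 0.838 and 5.27 ± 0.505 FPKM in Sting-/- DOX, 49.3 ± 0.92 and 12.3 ± 0.382 FPKM in WT DOX and 42.3 ± 0.745 and 16.3 ± 1.4 FPKM in WT saline (SD, n = 3 each). Both were lower in Sting-/- DOX against WT DOX, with log2 fold changes of -1.093 and -1.087 (limma adjusted p = 1.53e-10 and 3.24e-08). In WT DOX against WT saline they went opposite ways, Hspa4 0.21 and Hspa4l -0.37 (limma adjusted p = 0.000684 and 0.000739), though Hspa4 was -0.03 with median-ratio scaling. Hspa2, an HSP70 best known from male germ cells, was at 6.89, 7.25 and 6.72 FPKM in Sting-/- DOX, 2.30, 1.78 and 2.65 FPKM in WT DOX and 2.31, 2.45 and 2.45 FPKM in WT saline. It rose by 1.303 against WT DOX (SE 0.09, limma adjusted p = 5.38e-08), and the WT groups overlapped. Hspa14, a ribosome-associated HSP70, rose by 0.38 in WT DOX against WT saline and fell by 0.26 in Sting-/- DOX against WT DOX (limma adjusted p = 0.000145 and 0.00164). Hspa1l, which neighbours Hspa1a, averaged 2.11 ± 0.35, 4.54 ± 0.63 and 4.59 ± 0.16 FPKM in Sting-/- DOX, WT DOX and WT saline, but 71.9% of its exonic bases overlap an antisense transcript.

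The cytosolic HSP90 genes changed in opposite directions with doxorubicin in WT hearts. Hsp90aa1, the inducible form, was at 94.03, 95.00 and 94.69 FPKM in Sting-/- DOX, 109.96, 122.84 and 114.45 FPKM in WT DOX and 62.93, 88.52 and 73.07 FPKM in WT saline. It rose by 0.64 in WT DOX against WT saline (0.635, SE 0.09, limma adjusted p = 7.65e-05) and fell by 0.29 in Sting-/- DOX against WT DOX (limma adjusted p = 0.0127). Hsp90ab1, the constitutive form, was at 375.62, 373.49 and 363.72 FPKM in Sting-/- DOX, 523.46, 496.49 and 511.53 FPKM in WT DOX and 526.09, 583.11 and 536.88 FPKM in WT saline. It fell by 0.46 against WT DOX (limma adjusted p = 4.88e-07), and its -0.10 in WT DOX against WT saline (limma adjusted p = 0.0441) was -0.06 without WT saline library 2 and did not pass without that library or any of 6 others left out singly (WT saline 3, WT DOX 2 and 3, and each Sting-/- DOX library). Their ratio, Hsp90ab1 over Hsp90aa1, was 3.92 ± 0.077 in Sting-/- DOX, 4.42 ± 0.36 in WT DOX and 7.43 ± 0.89 in WT saline (SD, n = 3 each), with both DOX groups below the saline group. Against WT saline, the Hsp90aa1 rise of 0.35 in Sting-/- DOX (limma adjusted p = 0.00378) was 0.23 without WT saline library 1 and -0.24 with median-ratio scaling.

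Chaperones of the endoplasmic reticulum changed in both directions. Of 13, 7 rose, 1 fell and 5 did not pass in WT DOX against WT saline (median 0.26), beside 45.3% of all genes higher and 21.5% lower. That split was 5 higher and 5 lower with median-ratio scaling and 6 and 5 with quantile normalization. In Sting-/- DOX against WT DOX, 4 rose, 6 fell and 3 did not pass (median -0.01), beside 54.1% of all genes higher and 29.7% lower. Median-ratio scaling gave 1 higher and 8 lower there. Hspa5 (BiP), the HSP70 of the endoplasmic reticulum, was at 210.53, 193.35 and 195.71 FPKM in Sting-/- DOX, 252.08, 265.46 and 258.34 FPKM in WT DOX and 202.88, 212.93 and 211.04 FPKM in WT saline. Hsp90b1 (GRP94), the HSP90 of that compartment, was at 171.59, 158.64 and 163.63 FPKM in Sting-/- DOX, 190.33, 202.55 and 195.18 FPKM in WT DOX and 127.42, 135.86 and 132.12 FPKM in WT saline. WT DOX was the highest group for both, but Sting-/- DOX overlapped WT saline for Hspa5 and lay above it for Hsp90b1 on the FPKM scale (0.318, limma adjusted p = 1.2e-05), but below it with median-ratio scaling (-0.274, limma adjusted p = 3.92e-05). In WT DOX against WT saline, Hspa5 rose by 0.31 and Hsp90b1 by 0.57 (limma adjusted p = 3.28e-05 and 1.76e-07); the Hspa5 rise was 0.055 and did not pass with median-ratio scaling. Both fell in Sting-/- DOX against WT DOX, by 0.37 and 0.25 (limma adjusted p = 3.08e-06 and 0.000119), and Hsp90b1 was at -0.10 and did not pass with quantile normalization. Some 10.3% of the exonic bases of Hsp90b1 overlap a pseudogene on the other strand.

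The 4 genes of this set that rose in Sting-/- DOX against WT DOX were all J proteins: Dnajb11, Dnajc1, Dnajc3 and Dnajc10. With median-ratio scaling only Dnajc3 of these passed, and Dnajc1 was at -0.012, against 0.30 before. Dnajb11, which binds unfolded protein for Hspa5, was at 48.46, 48.11 and 46.54 FPKM in Sting-/- DOX, 35.75, 35.54 and 37.83 FPKM in WT DOX and 20.63, 23.45 and 21.98 FPKM in WT saline. Dnajc3 (P58IPK), which also binds unfolded protein for Hspa5, was at 21.64, 21.25 and 21.12 FPKM in Sting-/- DOX, 13.81, 14.96 and 15.29 FPKM in WT DOX and 10.71, 10.69 and 10.92 FPKM in WT saline. The groups do not overlap for either gene, and the order was Sting-/- DOX, WT DOX, WT saline. Dnajb11 rose by 0.70 in WT DOX against WT saline and by 0.38 in Sting-/- DOX against WT DOX (limma adjusted p = 1.71e-07 and 1.8e-05), and Dnajc3 by 0.41 and 0.51 (limma adjusted p = 1.33e-05 and 9.42e-07). With median-ratio scaling the second rise of Dnajb11 was 0.047 and did not pass, while that of Dnajc3 was 0.185 and passed (limma adjusted p = 0.00365). Dnajc10, a reductase that opens disulfide bonds, averaged 24.3 ± 0.72 FPKM in Sting-/- DOX, 18.4 ± 1.4 in WT DOX and 13.0 ± 0.37 in WT saline (SD, n = 3 each). It rose by 0.47 in WT DOX against WT saline and by 0.39 in Sting-/- DOX against WT DOX (limma adjusted p = 1.58e-05 and 4.31e-05). The rise between the DOX groups was 0.06 and did not pass with median-ratio scaling.

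Of these genes, 3 carry the endoplasmic reticulum stress element, searched on both strands as CCAAT and CCACG with 9 free bases between them, and their sequences are shown because the genes rose with doxorubicin in WT hearts. It was found in the 250 bases before a start of Dnajc3, Hsp90b1 and Hspa5, 3 of 56 members, and in 0.13% of all genes in the RefSeq table. Capitals mark the element. The stretches are chr2:34772019-34772048 on the plus strand for Hspa5, chr10:86705528-86705557 on the minus strand for Hsp90b1, where the element reads on the other strand and is the nearer of 2 matches to the start, and chr14:118937682-118937931 on the plus strand for Dnajc3 (GRCm38.p6).
Hspa5: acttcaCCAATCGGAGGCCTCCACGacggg
Hsp90b1: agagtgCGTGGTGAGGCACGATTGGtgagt
Dnajc3: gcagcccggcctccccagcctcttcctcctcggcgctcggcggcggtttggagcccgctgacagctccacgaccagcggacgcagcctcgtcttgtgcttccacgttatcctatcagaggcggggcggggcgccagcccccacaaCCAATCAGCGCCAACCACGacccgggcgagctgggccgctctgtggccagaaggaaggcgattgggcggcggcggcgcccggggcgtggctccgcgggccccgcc
All 3 rose in WT DOX against WT saline, but in Sting-/- DOX against WT DOX Dnajc3 rose while Hspa5 and Hsp90b1 fell. A match to these letters describes the sequence and does not show that a factor binds there.

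Among the other members of this compartment, Dnajb9, which holds back the stress sensor IRE1, was at 25.89, 26.45 and 24.09 FPKM in Sting-/- DOX, 34.69, 35.72 and 34.45 FPKM in WT DOX and 39.94, 38.36 and 38.54 FPKM in WT saline. It was the 1 member of the set that fell in WT DOX against WT saline (-0.15, limma adjusted p = 0.0105), and it fell by 0.44 in Sting-/- DOX against WT DOX (limma adjusted p = 1.61e-06). Hspa13 rose by 0.55 in WT DOX against WT saline and did not pass between the DOX groups (0.04, limma adjusted p = 0.584; -0.27 with median-ratio scaling, where it passed). Dnajc16 fell most in Sting-/- DOX against WT DOX, by 1.16 (limma adjusted p = 1.43e-07), at an average of 2.32 ± 0.32 FPKM against 6.42 ± 0.72 FPKM. Dnajb12 and Dnajb14, membrane J proteins of protein degradation, Dnajc1, Dnajc18 and Dnajc25 had log2 fold changes of -0.34 to 0.30 against WT DOX.

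Cytosolic and nuclear J proteins were mostly lower in Sting-/- DOX. Of the 8 tested, 5 fell, 1 rose and 2 did not pass against WT DOX, where 29.7% of all genes fell and 54.1% rose. In WT DOX against WT saline 4 fell, 2 rose and 2 did not pass, beside 21.5% of all genes lower and 45.3% higher. The exception was Dnaja1, a general HSP70 cochaperone, at 49.41, 52.64 and 50.50 FPKM in Sting-/- DOX, 25.94, 30.88 and 28.38 FPKM in WT DOX and 23.79, 28.48 and 24.25 FPKM in WT saline. It rose by 0.82 against WT DOX (SE 0.07, limma adjusted p = 5.01e-07), and the WT groups overlapped. Its closest relatives moved down: Dnaja2 averaged 43.6 ± 1.0 FPKM in Sting-/- DOX, 89.2 ± 3.4 in WT DOX and 103.4 ± 3.8 in WT saline (SD, n = 3 each). Dnaja4, another relative, was at 19.02, 19.44 and 18.97 FPKM in Sting-/- DOX, 37.28, 35.96 and 34.86 FPKM in WT DOX and 46.93, 50.70 and 46.84 FPKM in WT saline, although 44.1% of its exonic bases overlap Wdr61 on the other strand. Dnaja2 and Dnaja4 fell by 1.015 and 0.88 against WT DOX (limma adjusted p = 3.68e-10 and 2.73e-09).

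Among the DNAJB genes, Dnajb4 fell most in Sting-/- DOX against WT DOX (-1.653, limma adjusted p = 3.59e-11), at 16.95 ± 0.505 against 55.6 ± 4.4 FPKM (SD, n = 3 each). Dnajb5 was at 20.29, 22.91 and 20.92 FPKM in Sting-/- DOX, 25.01, 24.23 and 24.07 FPKM in WT DOX and 37.91, 38.02 and 37.33 FPKM in WT saline. Most of its difference lay between WT DOX and WT saline, -0.61 (limma adjusted p = 4.33e-07), against -0.19 between the DOX groups (limma adjusted p = 0.00363). Dnajb2, which like Dnajb6 limits protein aggregation, fell by 0.74 against WT DOX (limma adjusted p = 1.37e-06).

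Hspa12b showed the largest rise of any member. Hspa12a and Hspa12b are distant relatives of HSP70, and Hspa12b is known from endothelial cells. Hspa12b was at 53.34, 57.78 and 58.08 FPKM in Sting-/- DOX, 11.64, 12.04 and 11.32 FPKM in WT DOX and 13.71, 12.80 and 13.53 FPKM in WT saline. It rose by 2.18 against WT DOX (SE 0.05, limma adjusted p = 1.9e-12) and fell by 0.18 in WT DOX against WT saline (limma adjusted p = 0.00765). Hspa12a, its relative, was at 5.45, 5.35 and 5.94 FPKM in Sting-/- DOX, 9.55, 10.11 and 9.60 FPKM in WT DOX and 17.66, 19.06 and 18.68 FPKM in WT saline. It was lower by 0.71 in Sting-/- DOX against WT DOX and by 0.86 in WT DOX against WT saline (limma adjusted p = 1.51e-07 and 7.06e-08). Beside these values, the 8 endothelial markers were all higher in Sting-/- DOX against WT DOX, with a median log2 fold change of 1.90, and their part in the Hspa12b rise was not tested.

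The DNAJC proteins of RNA, ribosomes and histones rose in 4 of 6 cases in WT DOX against WT saline, beside 45.3% of all genes higher and 21.5% lower. The other 2, Dnajc21 (-0.185, limma adjusted p = 0.053) and Dnajc24, did not pass. Dnajc21, which acts in making the large ribosomal subunit, passed as lower with median-ratio scaling (-0.428), quantile normalization (-0.357) and TPM scaling (-0.219). The set fell in 4 of 6 in Sting-/- DOX against WT DOX, with none higher, beside 29.7% of all genes lower and 54.1% higher. Dnajc2, which sits on the ribosome, averaged 15.6 ± 1.0 FPKM in Sting-/- DOX, 23.3 ± 1.7 in WT DOX and 17.6 ± 0.12 in WT saline, and Dnajc8, a splicing factor, 73.5 ± 3.1, 85.9 ± 1.4 and 66.8 ± 1.4 FPKM (SD, n = 3 each). Of these 4 rises, those of Dnajc2, Dnajc9 and Dnajc17 did not pass with median-ratio scaling (0.14, 0.12 and 0.18). Dnajc5, a synaptic vesicle J protein also found outside nerve, and the endosomal Dnajc13 fell by 0.27 and 0.14 in Sting-/- DOX against WT DOX (limma adjusted p = 0.000158 and 0.0412), but Dnajc13 did not pass without any 1 of the WT DOX libraries, Sting-/- DOX library 1 or WT saline library 3. Dnajc14, which helps receptors leave the endoplasmic reticulum, was at 28.88, 28.25 and 28.14 FPKM in Sting-/- DOX, 18.23, 20.15 and 17.84 FPKM in WT DOX and 14.99, 15.63 and 14.49 FPKM in WT saline. It rose by 0.58 against WT DOX (limma adjusted p = 6.22e-07), and 17% of its exonic bases overlap Ormdl2 on the other strand. Dnajc7 also rose, by 0.275 (limma adjusted p = 0.000104; -0.06 with median-ratio scaling), while Dnajc12, Dnajc27 and Dnajc4 fell by 1.005, 0.295 and 0.297 (limma adjusted p = 3.11e-06, 0.00472 and 0.000135).

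Set against WT saline, Sting-/- DOX hearts had 38 members lower, 19 higher and 6 that did not pass, where 25.9% of all genes were lower and 63.0% higher. The 57 that passed are 90.5% of those tested, near the 88.9% of all genes. The ranges did not overlap for 55 (87.3%, against 89.2% of all genes), 37 of them lower (26.0% of all genes) and 18 higher (63.2% of all genes). The largest falls were those of Hspb7 (-2.955), Dnajc28 (-2.81), Hspb8 (-2.75), Hspa9 and Hspb6 (-2.715 each), and the largest rises those of Hspa12b (2.0), Hspa2 (1.22), Dnajb11 (1.08), Dnaja1 (0.97) and Dnajc3 (0.92), each with a limma adjusted p of at most 7.09e-08. Median-ratio scaling gives 52 members lower and 7 higher, beside 5493 of all genes lower and 5281 higher. Both comparisons with Sting-/- DOX share those libraries. WT DOX against WT saline and Sting-/- DOX against WT DOX share the WT DOX libraries. The comparisons are therefore not independent. Set side by side in WT DOX against WT saline and in Sting-/- DOX against WT DOX, 20 members were lower in both and 7 higher in both. Another 12 were higher in the first and lower in the second, 1 (Hspa12b) was the reverse, and 4 passed in neither. The shares of all genes with these patterns were not counted, so no pattern is read as particular to the members. The patterns rest on calls on the FPKM scale, which rescaling changed.

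Outside the symbol rule, the partners of these chaperones gave the following counts on the FPKM scale. Rescaled values of these lists, here and in the next paragraph, were not analysed. Of the heat shock factors Hsf1, Hsf2 and Hsf4 and the factor-binding protein Hsbp1, 0 of 4 passed in WT DOX against WT saline (limma adjusted p = 0.0538 to 0.577), where 66.7% of all genes passed. In Sting-/- DOX against WT DOX, 3 rose and Hsf2 fell (-0.285, limma adjusted p = 0.00258), beside 54.1% of all genes higher and 29.7% lower. The Hsbp1 rise of 0.226 lay below the all-gene median of 0.249. Hsf1, the main activator of the heat shock response, averaged 40.8 ± 2.2 FPKM in Sting-/- DOX, 22.6 ± 0.54 in WT DOX and 23.5 ± 1.1 in WT saline (SD, n = 3 each), a rise of 0.82 over WT DOX (limma adjusted p = 1.53e-08). Of 32 cochaperones of HSP70 and HSP90, 12 rose, 17 fell and 3 did not pass in Sting-/- DOX against WT DOX. In WT DOX against WT saline, 12 rose, 6 fell and 14 did not pass, beside 45.3% of all genes higher and 21.5% lower. The all-gene shares for the DOX groups are those given above, 54.1% higher and 29.7% lower. Bag2 (-2.0) and the mitochondrial HSP90 Trap1 (-1.47) fell most against WT DOX, and Unc45a (1.255) and Bag5 (1.12) rose most. Fkbp4 and Fkbp5, HSP90 partners on steroid receptors, went opposite ways in WT DOX against WT saline (-0.95 and 0.82, limma adjusted p = 2.87e-09 and 3.33e-07).

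The cytosolic CCT chaperonin folds actin and tubulin, and prefoldin feeds it. Their genes rose in 12 of 14 cases in WT DOX against WT saline (median 0.39). In Sting-/- DOX against WT DOX, 11 of 14 fell and 2 rose (median -0.52). Of all genes tested, 45.3% were higher in the first comparison and 29.7% lower in the second, with medians of 0.13 and 0.25. Cct8 averaged 46.1 ± 0.60 FPKM in Sting-/- DOX, 88.7 ± 3.5 in WT DOX and 58.5 ± 1.2 in WT saline (SD, n = 3 each), while Pfdn5 rose by 0.83 in Sting-/- DOX against WT DOX (limma adjusted p = 1.74e-09). Endoplasmic reticulum folding and unfolded protein response genes outside the rule rose in 18 of 22 cases in WT DOX against WT saline (median 0.82). They rose in 15 of 22 in Sting-/- DOX against WT DOX (median 0.36). Beside these stand 45.3% and 54.1% of all genes higher, with medians of 0.13 and 0.25. Sdf2l1, a partner of Hspa5 and Dnajb11, rose most with doxorubicin in WT hearts (2.28, limma adjusted p = 7.08e-10), and Herpud1 was the 1 gene that fell (-0.51, limma adjusted p = 5.1e-07). Xbp1, a transcription factor of the unfolded protein response, rose by 0.74 in Sting-/- DOX against WT DOX, where Atf6, the sensor that acts through the stress element shown above, fell by 1.44 (limma adjusted p = 3.91e-09 and 2.73e-10).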

How the data were processed

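RNA-seq of mouse heart gave 9 libraries in 3 groups of 3, with groups and replicate numbers from the sample titles. The authors deposited FPKM values with 2 decimals, and every library lists 16873 genes. The submitters' processing notes name HISAT2 2.0.4, Bowtie2 2.2.5, RSEM 1.2.12 and the build GRCm39, with no role or order. Since FPKM values are not counts, count tests were left out. The sum per library lay between 539287 and 570128 FPKM. Depth, estimated from the spacing of low FPKM values, was about 7.6 to 8.0 M fragments in Sting-/- DOX, 12.4 to 12.6 M in WT DOX and 10.6 to 10.9 M in WT saline, and 46.0% to 57.8% of the values used came within 0.1 reads of a whole number, so depth is approximate and counts were not recovered.

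Symbols came from the RefSeq gene table of GRCm38.p6, where 16825 IDs had an entry and 48 had none. Members of that table not among the genes in the files were not analysed here. Promoter windows come from RefSeq (GRCm38.p6) and exon overlaps from GENCODE M21, and both are of an older build than the files. Log2(FPKM + 1) values were tested with limma 3.58.1 in R 4.3.3 (trended variance prior, 1 fit of all 9 libraries, 6 residual degrees of freedom, two-sided, Benjamini-Hochberg over 12485 genes), and the script was tested on simulated data. With 3 libraries a group, the smallest p of an exact permutation test is 0.1. Joins used pandas 2.3.3 under Python 3.11.15, and figures matplotlib 3.10.9.

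The members, roles, lists and rule for naming genes were chosen with earlier results of these data known. Per-library values are given for a panel of well-known members and for the members with the 5 strongest changes each way per comparison among those without range overlap; other members appear by means, fold changes or counts. Alternatives covered the pseudocount, the filter, scaling, the libraries in the fit, the variance prior, library weights, a replicate block and leaving out each library.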

Additional observations from a re-analysis of the deposited data

How the results depend on the processing

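Rescaling moved the results most. Median-ratio scaling and quantile normalization gave 11 and 13 members higher in WT DOX against WT saline, in place of 23, with 3582 and 3461 of all genes higher and 5109 and 5363 lower. In Sting-/- DOX against WT DOX median-ratio scaling gave 5 members higher, in place of 10. In Sting-/- DOX against WT saline the 2 scalings gave 7 and 11 members higher, in place of 19, with 5281 and 5487 of all genes higher and 5493 and 5205 lower. All genes split to 4709 higher and 5385 lower in Sting-/- DOX against WT DOX with median-ratio scaling. The log2 fold changes listed next turned sign and passed the test before or after rescaling. Others turned sign but passed in neither fit: 4 members in WT DOX against WT saline and 5 in Sting-/- DOX against WT DOX with median-ratio scaling, and 5, 6 and 1 with quantile normalization in those comparisons and in Sting-/- DOX against WT saline. With median-ratio scaling the listed values in WT DOX against WT saline were Dnajb4 -0.031, Dnajc11 -0.233, Dnajc25 -0.215, Dnajc7 -0.100, Hspa4 -0.034, Hspa8 -0.235 and Hspe1 -0.204. In Sting-/- DOX against WT DOX they were Dnajb6 -0.247, Dnajc1 -0.012, Dnajc7 -0.063, Dnajc9 -0.308, Hspa13 -0.271 and Hsph1 -0.239. In Sting-/- DOX against WT saline they were Dnajb1 -0.546, Dnajb14 -0.196, Dnajb6 -0.211, Dnajc17 -0.063, Dnajc7 -0.163, Dnajc8 -0.453, Dnajc9 -0.192, Hsp90aa1 -0.242, Hsp90b1 -0.274, Hspa14 -0.435 and Hspb1 -0.424. With quantile normalization the sign turned, under the same condition, in WT DOX against WT saline for Dnajc11 -0.167, Dnajc25 -0.203 and Dnajc7 -0.025, in Sting-/- DOX against WT DOX for Dnajc9 -0.245 and Hspa13 -0.242, and in Sting-/- DOX against WT saline for Dnajb1 -0.451, Dnajb14 -0.251, Dnajc17 -0.063, Dnajc8 -0.087, Dnajc9 -0.131 and Hspa14 -0.321.

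Leaving out each library in turn gave 21 to 24 members higher and 21 to 26 lower in WT DOX against WT saline, 9 to 10 and 40 to 43 in Sting-/- DOX against WT DOX, and 18 to 20 and 35 to 39 in Sting-/- DOX against WT saline; over all genes it gave 5303 to 5639 higher and 2423 to 2695 lower, 6575 to 6763 and 3570 to 3715, and 7745 to 7872 and 3137 to 3223. Outside the 2 rescalings, 49, 56 and 56 of the 63 tested members kept direction and call under every alternative run. The replicate numbers did not pair the libraries (correlations of same-numbered deviations -0.032 to 0.104), and with a replicate block 24 members were higher and 24 lower in WT DOX against WT saline, 11 and 41 in Sting-/- DOX against WT DOX, and 19 and 37 in Sting-/- DOX against WT saline. Depth limits genes near 1 FPKM most.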
